A study of Canis lupus familiaris with 6 samples.

Results

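Neuropeptide Y, the peptide encoded by NPY, was followed in bone healing sites of the beagle dog mandible that were filled with beta-tricalcium phosphate (beta-TCP, a resorbable ceramic bone substitute) or left empty. Its members were the probe sets annotated to NPY and to no other gene, which made 1 of 15153 genes and 2 of the 42860 probe sets of an Affymetrix canine array (Cfa.20447.1.S1_s_at and Cfa.20447.1.S1_at, here the _s_at and the _at probe set). NPY was selected on its beta-TCP minus control differences on these same arrays, so its own levels and differences are a description and carry no test.

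The labels give 6 groups with 1 array each. They are beta-TCP at day 4 and empty hole (control) at day 4, beta-TCP and control at day 7, and beta-TCP and control at day 14. All specimens came from the mandible of beagle dogs labelled as 9 years old, in which the premolars had been extracted 3 months before holes of 4.5 mm diameter and 8 mm length were drilled, and each specimen was a cylinder of that size. The sources used here do not say how many dogs there were or which specimens shared a dog. Every specimen is a mixture of cells, in which more cells of a type and more RNA per cell cannot be told apart.

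Neuropeptide Y is a short peptide that sympathetic nerve endings store and release together with noradrenaline. It is cut from a larger precursor, amidated at its end and read by a family of G protein-coupled Y receptors. In mouse bone, osteoblasts and osteocytes also make NPY, and the receptor gene Npy1r on osteoblasts is known for restraining bone formation. The peptidases DPP4 and FAP trim the peptide and shift it away from that receptor.

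Levels below are log2(value + 1), where the value is the probe set's signal as a multiple of the median of its array, so a level of 1 is the array median. The array labelled beta-TCP day 14 stood apart from the rest, with Spearman correlations over all probe sets of 0.723 to 0.779 with the other 5 arrays, against 0.832 to 0.905 among those 5. COL1A1, the main collagen chain of bone, lay between 9.49 and 11.30 on the 6 arrays, which alone cannot bear out the bone label. In contrast, MEPE and BGLAP, markers of osteocytes and of mature osteoblasts, lay below the array median on every control array. They also lay below it on the beta-TCP day 4 array. Bone sialoprotein (IBSP) lay above it on the control arrays (2.54, 5.82 and 3.81 on days 4, 7 and 14), as did SPP1, ALPL and SPARC. Of 19 measured genes in the osteoblast list described below, 8, 7 and 8 lay below it on those arrays.

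NPY was high on the beta-TCP arrays of days 7 and 14 and low on the other 4. On the _s_at probe set its level was 0.38 in the beta-TCP site and 0.05 in the control site at day 4. At day 7 it was 5.66 in the beta-TCP site and 0.74 in the control site. At day 14 it was 5.81 in the beta-TCP site and 0.13 in the control site. All 3 control arrays and the beta-TCP day 4 array read below their array median, and the pair of high arrays lay close together.

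As multiples of the array median, the same probe set read 0.304 in the beta-TCP site and 0.0387 in the control site at day 4. It read 49.6 in the beta-TCP site and 0.67 in the control site at day 7, and 55.0 in the beta-TCP site and 0.0917 in the control site at day 14. In the order of all 42860 probe sets of an array, NPY stood at place 1763 from the top on the beta-TCP day 7 array and at place 1309 on the beta-TCP day 14 array. On the control arrays it stood at places 40996, 25301 and 37582 (days 4, 7 and 14), and on the beta-TCP day 4 array at place 31512. A place in this order depends on the probes as well as on the transcript, so it compares arrays and not genes.

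**Figure D1:**
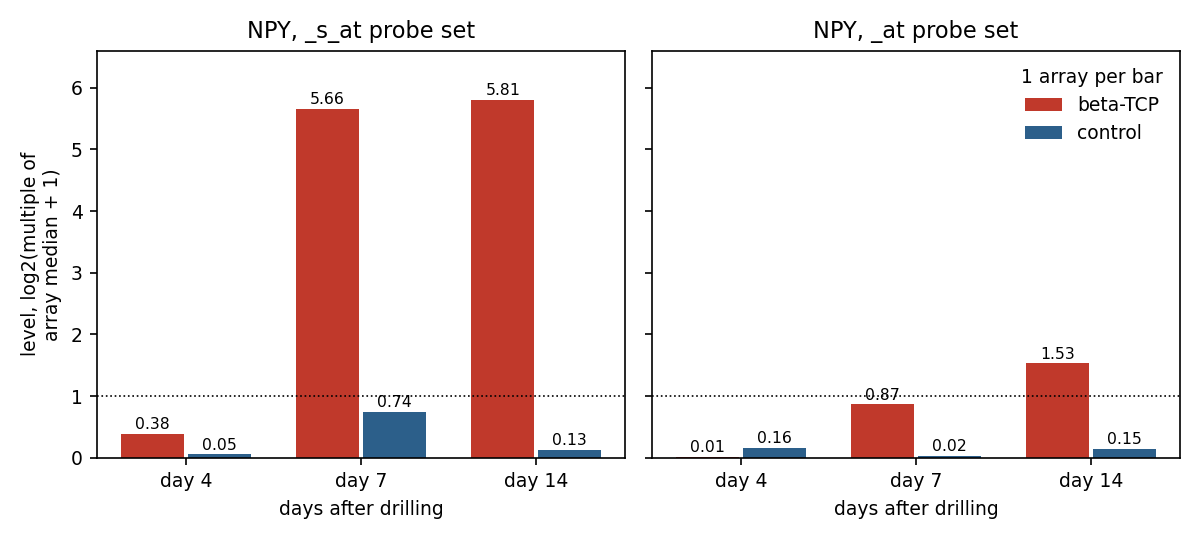
Level of NPY on each of the 6 arrays, as log2(multiple of the array median + 1), for the _s_at probe set (left) and the _at probe set (right). Each bar is 1 array, and the dotted line at 1 is the array median; the beta-TCP arrays of days 7 and 14 are the highest in both panels, at 5.66 and 5.81 on the left and 0.87 and 1.53 on the right.

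The _at probe set put the same arrays on top at a far lower signal. It read 0.87 in the beta-TCP site and 0.02 in the control site at day 7, and 1.53 in the beta-TCP site and 0.15 in the control site at day 14. At day 4 it was at the lowest value of the array (0.01 as deposited) in the beta-TCP site and at 0.16 in the control site. Of its 6 readings, that of the beta-TCP day 14 array alone lay above the array median.

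The probe sets differed by 4.79 log2 units on the beta-TCP day 7 array and by 4.28 on the beta-TCP day 14 array, and by less than 1 on the other 4. In Affymetrix naming an _s_at probe set holds probes that match several transcripts of the design. Which other transcripts these probes could match was not tested. Signed _s_at minus _at values were compared among 3016 such couples of an _s_at and an _at probe set with otherwise equal names. On the beta-TCP day 7 array 98.7% were lower than that of NPY, which includes gaps of any size the other way. In 8 of these pairs, NPY included, the _s_at probe set was at least 4-fold higher with beta-TCP at day 7, and in all 8 the _at probe set was higher too, by at least 2-fold in 5 of them. NPY was among the other 3.

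Day 14 was deposited on another scale than days 4 and 7, and some pairs of probe sets there stood in the opposite order. Of 31 pairs ending in _a_at and _at that lay over 2 log2 units apart on some array, 23 ran the other way round on both day 14 arrays. For pairs of the NPY kind, ending in _s_at and _at, this was 2 of 693, while 403 kept 1 order on all 6 arrays. NPY read high on the same probe set at day 14 as at day 7.

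The beta-TCP minus control difference of NPY was 0.33 log2 units at day 4, 4.92 at day 7 and 5.68 at day 14 on the _s_at probe set. On the _at probe set it was -0.15, 0.84 and 1.38 on the same days, so the direction at day 4 turns with the probe set. Expressed as plain ratios, the first probe set gave 7.85, 74.0 and 600.2, over control readings that were all below the array median and for which no detection call is given. Since 1 is added before the logarithm, the log2 differences are smaller than the logarithms of these ratios. With 1 array per group none of these differences has a replicate check.

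NPY had the largest upward difference of any gene on both later days. Over the 10550 genes whose mean level passed a filter on low values, NPY took rank 1 from the top at day 7 and at day 14. In size it was passed at day 14 by a downward difference of -8.43, and at day 7 the lowest difference was -3.01. NPY passed that filter only through its pair of high arrays. Next below it on both days was ENPP6, a choline phosphodiesterase of osteoblasts and oligodendrocytes, with 4.08 at day 7 and 3.66 at day 14. The lowest of its 4 probe sets gave 0.14 at day 7 and -0.057 at day 14. At day 4 NPY took rank 4083, between KIAA1328 and the cartilage gene CNMD (0.33 for each of the 3), and 61.3% of genes lay lower. Medians over all genes were 0.17, -0.085 and -0.23 on the 3 days, so NPY differed from the median gene by 0.16, 5.0 and 5.91.

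On the _s_at probe set, the step of NPY from day 4 to day 7 was larger in the beta-TCP sites than in the control sites. In the beta-TCP sites the day 7 array was 5.28 log2 units above the day 4 array, again rank 1 of 10550 genes, and the day 14 array was 0.15 above the day 7 array, at rank 3596. In the control sites day 7 was 0.68 above day 4, and day 14 was 0.61 below day 7. As multiples of the array median these control readings were 0.0387, 0.67 and 0.0917, differences that adding 1 before the logarithm shrinks. On the _at probe set the same steps were 0.85 and 0.66 in the beta-TCP sites, and -0.13 and 0.12 in the control sites. The deposited scale changes between days 7 and 14, so processing and time cannot be told apart in the second of these steps.

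Few genes shared the large difference on both later days, which use separate arrays. At least 2-fold higher with beta-TCP on days 7 and 14 were 27 of 10550 genes, at least 4-fold higher were 7, and at least 8-fold higher were 2, NPY and ENPP6. The 5 others at 4-fold were chosen after their values were seen. They were MEPE (3.02 at day 7 and 2.50 at day 14), PHEX (2.04 and 2.41), the potassium channel gene KCNK2 (2.03 and 2.23), SAMD11 (2.27 and 3.48) and the orphan receptor gene GPRC5C (3.23 and 2.06). Other probe sets gave less: at day 14 the lowest was 0.24 for PHEX, 0.17 for GPRC5C, 1.08 for SAMD11 and 1.48 for MEPE. MEPE is a phosphoglycoprotein of the bone matrix made by osteocytes, and PHEX is an endopeptidase of osteoblasts and osteocytes that takes part in phosphate balance. At day 4 none of these genes differed 2-fold, with values between -0.54 (GPRC5C) and 0.71 (SAMD11). Like NPY, MEPE and SAMD11 passed the filter only through the beta-TCP arrays of days 7 and 14.

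**Figure D2:**
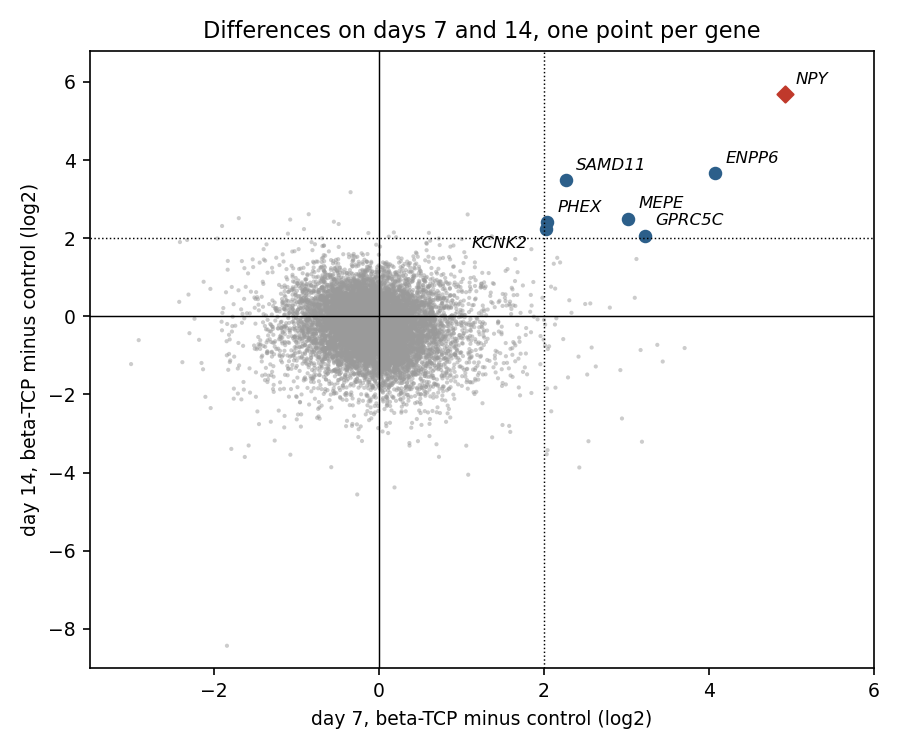
Beta-TCP minus control difference (log2) at day 7 against that at day 14, 1 point for each of 10550 genes. Dotted lines mark 2 log2 units (4-fold); NPY lies in the upper right corner at 4.92 and 5.68, and the 6 other genes past both lines are labelled.

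The genes most like NPY over the 6 arrays were then listed by Pearson's r of the log2 level, among 6686 other genes that ranged over at least 1 log2 unit. The 10 highest were MEPE (0.989), KCNK2 (0.983), ENPP6 (0.983), COX6A2 (0.976), EPHA3 (0.970), MYOM1 (0.965), PHEX (0.962), DIPK1C (0.957), SMOX (0.957) and PRR15 (0.951). COX6A2 is a striated muscle subunit of cytochrome oxidase, MYOM1 a sarcomere protein, EPHA3 an ephrin receptor and SMOX the spermine oxidase. In all, 31 of the 6686 genes reached an r of 0.9 (0.464%). The points are 6 arrays of 3 days on 2 deposited scales, and a gene needs little more than 2 high arrays to come near 1.

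The likeness rests on the beta-TCP arrays of days 7 and 14. Without them, r with NPY over the other 4 arrays ran between -0.84 (PHEX) and 0.79 (KCNK2) for these 10 genes, and 4 of the 10 were below 0. Spearman's rho over the 6 arrays was 0.49 for MEPE and PHEX, 0.83 for KCNK2 and ENPP6, and 0.94 for MYOM1 and SMOX. Other probe sets of a gene did not always follow: for COX6A2, SMOX and PRR15 another probe set had an r below 0, and the lowest r was 0.31 for PHEX, 0.38 for EPHA3 and 0.59 for ENPP6. Both probe sets of MEPE had at least 0.958, and KCNK2 has 1 probe set.

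The levels behind these coefficients are given for MEPE and ENPP6. MEPE lay at 0.07 in the beta-TCP site and 0.10 in the control site at day 4, at 3.11 in the beta-TCP site and 0.09 in the control site at day 7, and at 2.70 in the beta-TCP site and 0.20 in the control site at day 14. ENPP6 lay at 1.08 in the beta-TCP site and 0.87 in the control site at day 4. Its later levels were 5.03 (beta-TCP) and 0.95 (control) at day 7, and 4.15 (beta-TCP) and 0.49 (control) at day 14. As with NPY, the control arrays of both genes stayed below or near the array median on all 3 days, and the day 4 arrays of both treatments lay close together.

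**Figure D3:**
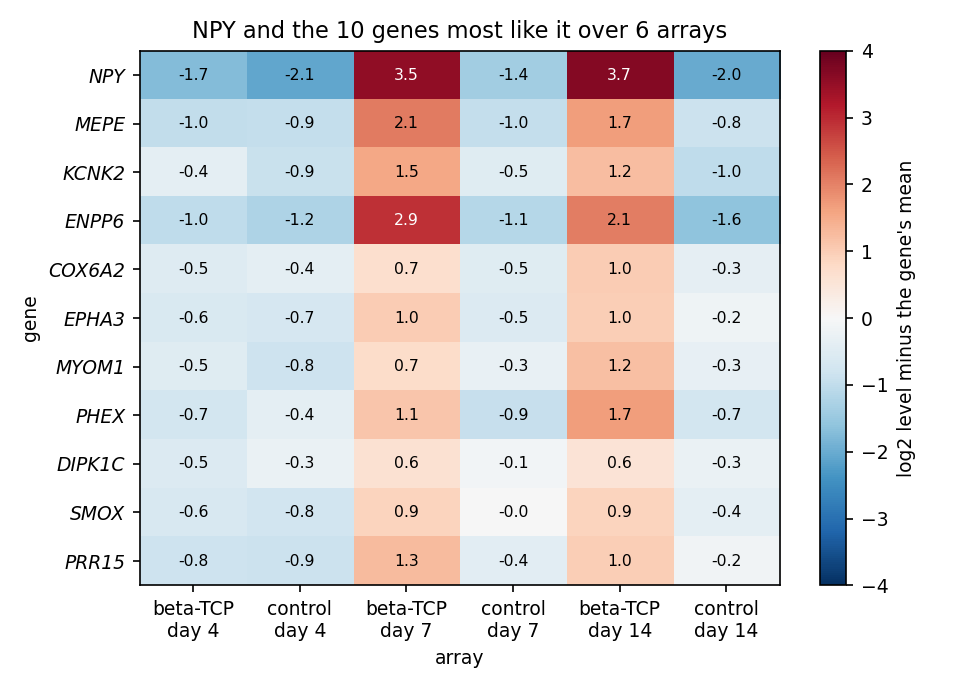
NPY and the 10 genes with the highest Pearson's r with it over 6 arrays. Each cell is the log2 level minus the gene's own mean over the arrays; the beta-TCP columns of days 7 and 14 are above the mean for every gene shown, and NPY spans the widest range.

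The receptors through which the peptide acts were read below the median of every array. Of 7 genes listed as family members and Y receptors, NPY1R, NPY2R and NPY5R have a probe set with a single gene, and none of the 3 passed the filter on low values. NPY1R lay at 0.09 in the beta-TCP site and 0.51 in the control site at day 4. At day 7 it lay at 0.08 in the beta-TCP site and 0.38 in the control site, and at day 14 at 0.26 in the beta-TCP site and 0.29 in the control site. NPY2R lay between 0.07 and 0.23 on the 6 arrays. NPY5R reached 0.85 in the beta-TCP site against 0.18 in the control site at day 14, still below the array median, and 0.03 in both sites at day 7. The summed signal of the 3 receptors was 0.288 array medians in the beta-TCP site and 0.997 in the control site at day 4. It was 0.251 in the beta-TCP site and 0.437 in the control site at day 7, and 1.15 in the beta-TCP site and 0.458 in the control site at day 14, so its direction differed between the later days. PYY, PPY, NPY4R and NPY6R were not analysed here.

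Genes of peptide processing and cleavage covered a wide range of levels, with 2 to 4 of the 12 listed genes below the array median on each array. All 12 were measured and 10 passed the filter. With beta-TCP, 2 of the 10 differed upward by 2-fold or more at day 4 and 0 downward, against 4.51% upward and 3.09% downward over all genes. At day 7 there was 1 each way, against 2.96% upward and 3.43% downward over all genes. At day 14 there was again 1 each way, against 3.48% upward and 15.4% downward over all genes. The list's medians were 0.69, -0.11 and -0.014 on the 3 days.

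The gene at least 2-fold higher at day 7 was CPE, the carboxypeptidase that trims peptide precursors after their first cut. CPE lay at 4.74 in the beta-TCP site and 3.08 in the control site at day 4. At day 7 it lay at 8.21 in the beta-TCP site and 5.42 in the control site, and at day 14 at 6.71 in the beta-TCP site and 6.49 in the control site. Its differences were 1.66, 2.80 and 0.22, and its other probe set gave 1.59, 3.23 and -0.23. The difference was thus largest at day 7 and small at day 14, unlike that of NPY.

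DPP4 differed at day 14. Its levels were 5.64 in the beta-TCP site and 4.71 in the control site at day 4, 7.43 (beta-TCP) and 8.28 (control) at day 7, and 8.48 (beta-TCP) and 5.87 (control) at day 14. The differences were 0.93, -0.85 and 2.61. Its other probe set gave 0.90 at day 14. FAP, the other peptidase, had 1.25, 0.044 and -1.34. PAM, the enzyme that amidates the peptide's end, had 0.98, -1.01 and 0.46, and its 5 probe sets ran from -1.01 to 0.60 at day 7.

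The convertases that make the first cut were near or below the array median. PCSK1 lay at 0.71 in the beta-TCP site and 0.50 in the control site at day 7, and at 1.07 in the beta-TCP site and 0.34 in the control site at day 14. PCSK2 lay at 0.11 in the beta-TCP site and 0.87 in the control site at day 7, and at 1.11 in the beta-TCP site and 0.77 in the control site at day 14. SCG5, the chaperone of PCSK2, had differences of 0.46, -0.18 and 0.51, and PCSK1N, an inhibitor of PCSK1, of -0.14, 0.075 and -0.15. QPCT, XPNPEP2, MME and PREP, which modify or degrade peptides, lay between -0.91 (PREP, day 14) and 0.91 (MME, day 4).

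Markers of nerve tissue were examined because sympathetic nerves are the classical source of the peptide. In the sympathetic list, TH and DBH, enzymes of noradrenaline synthesis, and SLC6A2, the noradrenaline transporter, lay below the array median on all 6 arrays. DDC, another enzyme of that synthesis, lay above it on all 6 arrays (1.73 to 2.12). So did SLC18A2, HAND2 and SCG3, with levels between 1.41 and 3.70. On each array 8 or 9 of the 13 measured genes lay below the array median. TH had 0.04 in the beta-TCP site and 0.28 in the control site at day 4, 0.31 (beta-TCP) and 0.08 (control) at day 7, and 0.11 (beta-TCP) and 0.09 (control) at day 14. The summed signal of the 13 measured genes of this list was 17.6 array medians in the beta-TCP site and 14.9 in the control site at day 4. It was 29.3 in the beta-TCP site and 26.2 in the control site at day 7, and 19.9 in the beta-TCP site and 22.0 in the control site at day 14. The largest signal of the list at day 7 was that of HAND2 in the beta-TCP site and that of SLC18A2 in the control site.

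Taken as 5 lists (sympathetic, neuron and axon, other neuropeptides, adrenergic receptors, Schwann cell), the nervous markers held 77 genes, of which 64 were measured and 28 passed the filter. At day 7, 2 of the 28 were 2-fold higher or more, and 0 lower, beside 2.96% and 3.43% of all genes. They were HAND2, a transcription factor of sympathetic neurons and of the embryonic jaw, and the microtubule gene MAP2. HAND2 had 1.65, with 0.90 on its other probe set, and MAP2 had 2.14, with 0.44 on its other probe set. At day 4, SCG3 (1.003) and the myelin gene PMP22 (1.28) were higher and 0 genes lower, beside 4.51% and 3.09% of all genes. The lowest of the PMP22 probe sets gave 0.099. At day 14, the myelin gene MBP (2.13, with -0.10 as the lowest of its probe sets) and ERBB3 (1.03) were higher. The growth cone gene GAP43 (-3.24), PMP22 (-1.27, with -0.11 as the highest of its probe sets) and PRX (-1.17) were lower. Over all genes the day 14 shares were 3.48% higher and 15.4% lower. The medians were -0.0040, -0.14 and 0.19 on the 3 days, against 0.17, -0.085 and -0.23 over all genes.

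On the probe set of highest mean, none of the 9 other neuropeptide genes above the filter, from the opioid precursor PENK to galanin (GAL), differed 2-fold. The lowest probe set of GAL gave -1.30 at day 7. Under the filter, TAC1 (1.18, with -0.091 on its other probe set) and HCRT (1.05) were past 2-fold upward at day 14. GAL lay at 2.60 in the beta-TCP site and 3.02 in the control site at day 7, and at 2.08 in the beta-TCP site and 2.78 in the control site at day 14. Among the 14 nervous genes in the comparison by r, MAP2 had the highest value, 0.888. That 0 of 14 reached 0.9 is no result about these genes, since 0.464% of all genes did. The part that nerve tissue has in the NPY signal was not tested beyond these values.

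The list of osteoblast and osteocyte genes had members past 2-fold on each of the 3 days, most of them upward. It held 22 genes, of which 19 were measured and 18 passed the filter. MEPE and BGLAP passed it only through the beta-TCP arrays of days 7 and 14. The list was drawn up with earlier results of these arrays known, so it is not independent evidence. At day 7, 7 of the 18 were past 2-fold upward and 1 downward, with a median of 0.77, against 2.96% upward, 3.43% downward and a median of -0.085 over all genes. At day 14, 5 went upward and 1 downward, with a median of 0.57, against 3.48%, 15.4% and -0.23 over all genes. At day 4, 4 went upward and 0 downward, with a median of 0.15, against 4.51%, 3.09% and 0.17 over all genes.

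The members differed in when they did so. IBSP, bone sialoprotein, was higher on all 3 days, with 2.50, 2.16 and 1.50. ENPP6, MEPE and PHEX had the late pattern described above, and osteocalcin (BGLAP) had it too, with -0.60, 1.85 and 1.72 and an r of 0.948 with NPY. PTH1R, the parathyroid hormone receptor, and ALPL, alkaline phosphatase, were at least 2-fold higher at day 7 (2.56 and 1.88). At day 14 they had 0.33 and -0.011, where the lowest probe set of ALPL gave -0.71. ALPL was also past 2-fold at day 4 (1.39, with 0.014 on its other probe set). DMP1, an osteocyte gene, and SOST, the gene of the osteocyte product sclerostin, did not differ 2-fold, with 0.47 and -0.63 at day 7. PDPN was the gene lower at day 7 (-1.42), and SGMS2 the one lower at day 14 (-1.12). Both were named after their values were seen, as was BGLAP.

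**Figure D4:**
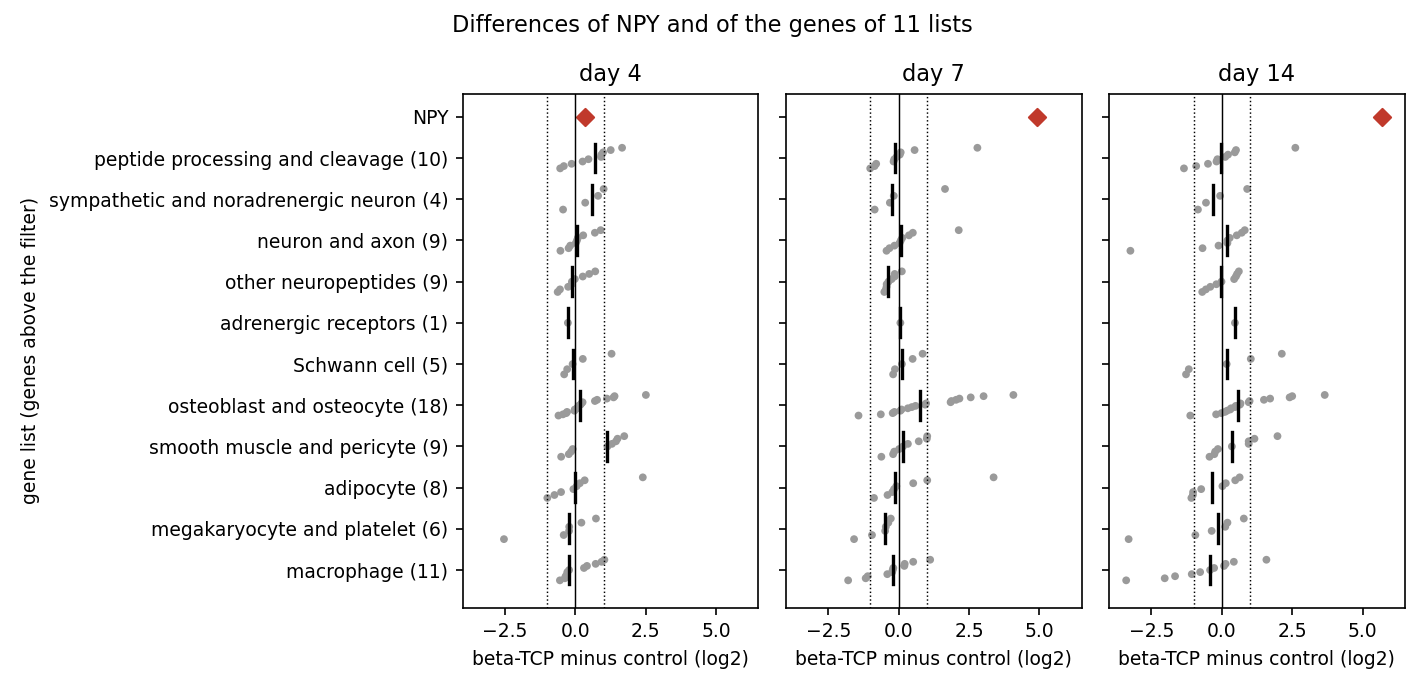
Beta-TCP minus control difference (log2) on each day for NPY (red diamond) and for the genes of 11 lists that passed the filter (grey points, their number in parentheses). Black bars are list medians and dotted lines mark 2-fold; NPY lies to the right of every listed gene on days 7 and 14, and inside the dotted lines at day 4.

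Of the 4 lists kept for other cell types, none had the pattern of NPY as a whole. Their counts stand beside all-gene shares of 4.51%, 2.96% and 3.48% higher and 3.09%, 3.43% and 15.4% lower on days 4, 7 and 14. The smooth muscle and pericyte list had 5 of 9 genes at least 2-fold higher at day 4 and 2 at both day 7 and day 14, with 0 lower. Its gene MYH11 had -0.096, 1.003 and 1.98, with an r of 0.907 with NPY. The lowest of the 4 MYH11 probe sets gave -0.084 at day 7 and -0.50 at day 14. RGS5, PDGFRB, MCAM and ACTA2 were higher at day 4, with values between 1.30 (ACTA2) and 1.73 (RGS5). The lowest probe set at day 4 gave 0.24 for RGS5, 0.30 for PDGFRB and -0.25 for MCAM. The adipocyte list had 1 of 8 higher at day 4 (LPL, 2.39), 2 at day 7 (FABP4, 3.38, and PPARG, 1.02) and 0 at day 14, where 3 were lower (LPL, LEP and PPARG, from -1.08 to -1.02).

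Megakaryocytes make NPY in rodents. Of 6 genes in that list, 1 was lower on each day, the platelet chemokine gene PPBP (-2.54, -1.58 and -3.31), and 0 were higher. The highest of the 3 PPBP probe sets gave -1.08, 0.46 and -0.34, so its direction at day 7 turns with the probe set. The macrophage list had 1 of 11 genes higher on each day, with 0, 3 and 4 lower. MARCO, a scavenger receptor, had -0.29, -1.79 and -3.39, and CD68 had -0.55, -1.17 and 1.59. The other CD68 probe set gave 0.10 at day 14. CD163 (-2.03, with -0.16 as the highest of its probe sets) and MRC1 (-1.66) were lower at day 14, and MSR1 (1.12) was higher at day 7.

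The fit with residual degrees of freedom was limma's additive model of day and treatment over all 6 arrays. In it the 90 companion genes above the filter were read and NPY was not. MEPE and BGLAP were among the 90, although they passed the filter only through the beta-TCP arrays of days 7 and 14. Their results in the fit are therefore no independent support. With 1 array per group, the fit's residual holds how the beta-TCP difference changed between days. Its SEs and p-values therefore measure no replicate spread, and a difference seen on some days only raises them. At a Benjamini-Hochberg adjusted p of 0.05 over all genes it called 0 of the 90, and 17 had an unadjusted p under 0.05 (14 higher with beta-TCP, 3 lower), beside 0 called and 512 unadjusted of the 10549 genes other than NPY. The lowest adjusted p in limma was 0.158, shared by PPBP (-2.48 ± 0.37, SE) and IBSP (2.05 ± 0.33). ENPP6 averaged 2.65 ± 0.60 (adjusted p = 0.266, limma) and MEPE 1.83 ± 0.50 (adjusted p = 0.457, limma).

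That 0 depends on the days that enter, and each smaller fit has 1 residual degree of freedom. Without the day 4 pair limma called 5 companion genes, ENPP6, MEPE and PHEX higher and PPBP and MARCO lower. Without the day 7 pair it called 2, IBSP higher and PPBP lower. Without the day 14 pair it called 9, with IBSP, CPE, ENPP6, PTH1R, ALPL, MEPE, RGS5 and HAND2 higher and PPBP lower. Over the 10549 genes the same 3 fits called 13, 28 and 226.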

How the data were processed

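For days 4 and 7 the authors deposited a signal relative to the median of each array, with a minimum of 0.01. For day 14 they deposited an undivided intensity. Units were read from the values, since the sources used here name neither software nor scaling. Depth has no meaning for arrays, whose number (1 per group) limits precision.

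Each array was divided by its median, and log2(value + 1) was taken. Probe sets with 1 gene (29254) were used, and names were updated through the RefSeq gene table of UU_Cfam_GSD_1.0 (27680 matched). Left out were 90 pairs ending in _a_at and _at. Each of 15153 genes was read on its probe set of highest mean, and 10550 with a mean at or above the 40th percentile of all probe sets were kept. The additive fit used limma 3.58.1 in R 4.3.3 (two-sided) and was also run on simulated data. Those had a common noise level for all genes and the same effect on each day. They therefore say nothing about how the fit treats differences that change between days.

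NPY, the 12 gene lists (163 genes, 139 measured, 90 kept) and the rules were chosen with earlier results of these arrays known. Named were all measured family and processing genes, up to 5 genes of each other list that differed 2-fold, the 10 genes most like NPY, genes 8-fold higher on days 7 and 14, and the neighbours of NPY in rank. Genes without a symbol of their own were skipped. Alternatives were other pseudocounts, scalings, filters and probe sets, and left-out days. The likeness without the 2 arrays highest in NPY was added after the data were seen.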

Additional observations from a re-analysis of the deposited data

Results flagged for a closer look

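Named genes that were at least 2-fold higher with beta-TCP on one day and at least 2-fold lower on another were set apart. Each day has 1 array per treatment, and the difference between days was not tested. FAP had 1.25 at day 4 and -1.34 at day 14. PMP22 had 1.28 at day 4 and -1.27 at day 14. LPL had 2.39 at day 4 and -1.08 at day 14. PPARG had 1.02 at day 7 and -1.02 at day 14, and CD68 had -1.17 at day 7 and 1.59 at day 14. The other CD68 probe set gave 0.10 at day 14. Among the PMP22 probe sets the lowest gave 0.099 at day 4 and the highest -0.11 at day 14. All of these reversals have day 14 on one side, whose beta-TCP array stood apart from the others.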

How the results depend on the processing

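NPY stayed higher with beta-TCP on days 7 and 14 under each of 6 alternatives. At day 7 it differed by 5.76 with a pseudocount of 0.25, by 1.98 with 16, by 4.86 with quantile normalization, by 4.89 with arrays scaled to a common 90th percentile, by 0.84 on the other probe set and by 2.88 as the mean of both. At day 14 these were 7.34, 2.14, 5.90, 5.98, 1.38 and 3.53. At day 4 they were 0.94, 0.024, 0.33, 0.32, -0.15 (reversed) and 0.091. A larger pseudocount shrinks differences of low values by construction; the cause of the gap between probe sets was not tested. Of the 10 genes most like NPY, quantile normalization kept 6, Spearman's rho 0, the arrays of days 4 and 7 alone 2, and the arrays without the 2 highest in NPY 0.

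Counts past 2-fold are small and move with the settings. For the nervous lists a pseudocount of 0.25 gave 5, 4 and 5 higher on the 3 days and 1 lower at day 7, and a pseudocount of 16 gave 0 higher on each day and 1 lower at day 14. Quantile normalization gave 1 higher at day 4 and 4 at day 14, the 90th percentile scaling 1 and 5, no filter 6 at day 14 and the mean of probe sets 1. For the osteoblast list a pseudocount of 16 gave 1, 4 and 0 higher and 0 lower at day 14, and 0.25 gave 1 lower at day 4 and 2 at day 7. The mean of probe sets gave 0 lower at day 7 and 2 at day 14, and the 90th percentile scaling 9 higher at day 14. For the processing list 0.25 gave 4 higher at day 4 and 2 lower at day 14, and 16 gave 0 higher at day 4. Its 1 lower gene was 0 with a pseudocount of 16, quantile normalization and the 90th percentile scaling at days 7 and 14, and with the mean of probe sets at day 7. In limma's additive fit the 0 companion genes stayed 0 under the other pseudocounts, scalings and without a filter, and became 5, 2 and 9 without the day 4, 7 and 14 pair. Arrays were paired by day through the day term of that fit. No paired analysis was possible because, beyond day, each group holds 1 array and the labels tie no array to a dog. No detection calls are given, so whether the low NPY readings lie above background is not known.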

Other observations

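The 42680 probe sets outside the _a_at and _at pairs left out were also searched, with those that have no single gene. Of these, 10 were at least 4-fold higher with beta-TCP on both day 7 and day 14. The 3 with no single gene were Cfa.12905.1.A1_a_at (3.58 at day 7 and 3.49 at day 14), Cfa.5508.1.A1_at (2.85 and 3.10) and Cfa.8786.1.A1_at (3.16 and 2.15). At day 4 they had -0.071, -0.48 and 0.66. Cfa.12905.1.A1_a_at lay at 4.85 in the beta-TCP site and 1.27 in the control site at day 7, and at 5.39 in the beta-TCP site and 1.89 in the control site at day 14.

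The genes next to NPY in the RefSeq assembly UU_Cfam_GSD_1.0, used for gene order only, were read as well. On one side lie STK31, FAM221A and TRA2A, which differed by 0.11, -0.022 and 0.025 at day 7, and by 0.087, -0.67 and -0.25 at day 14. On the other side MPP6, a membrane scaffold gene, differed by 0.92, 2.13 and -0.21 on days 4, 7 and 14. GSDME and OSBPL3, further along, had -0.75 and -0.92 at day 7 and 0.00022 and -0.19 at day 14.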
